A study of Homo sapiens with 10 samples.

Results

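The D-type cyclins (CCND1, CCND2, CCND3), the E-type cyclins (CCNE1, CCNE2) and the inhibitors of their kinases (CDKN1A, CDKN1B, CDKN1C, CDKN2C, CDKN2D) are 10 of the 19893 genes measured in Kuramochi cells under olaparib. They were chosen by name as regulators of the G1 phase, with earlier results of these data known. Kuramochi cells come from a human ovarian carcinoma of the high-grade serous type and are BRCA2-mutant, and olaparib inhibits the DNA repair enzymes PARP1 and PARP2. Single-cell RNA was measured in 5 conditions. Adapted cells were olaparib-resistant populations kept at 320 µM or 10 µM. Persister cells were those left after drug-naive cells had spent 9 days in 320 µM or 10 µM olaparib. Control cells were drug-naive and untreated. How the adapted populations were derived, and from how many clones, is not given in the sources used here. All 5 conditions are the same BRCA2-mutant line, and their cells were tagged and mixed in 2 pools. Adding up the counts of all cells that shared a condition and a pool gave 10 sums (n = 2 per condition).

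In G1, cyclins D1, D2 and D3 bind the kinases CDK4 and CDK6, and cyclins E1 and E2 bind CDK2. These kinases phosphorylate RB1 and its relatives, which releases E2F factors that switch on the genes of S phase, CCNE1 and CCNE2 among them. The INK4 proteins, such as CDKN2C (p18) and CDKN2D (p19), hold CDK4 and CDK6 back, while the CIP/KIP proteins CDKN1A (p21), CDKN1B (p27) and CDKN1C (p57) act chiefly on CDK2 complexes.

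The sums held 3532281 to 23189583 UMIs (unique molecular identifiers, 1 per captured RNA molecule) from 263 to 2435 cells, fewest in persister cells at 10 µM. The 2 pools shared 13 cell barcodes. Levels are given in UMI counts per 1000000 (CPM) scaled by TMM factors. Of 14 markers of the serous ovarian lineage, the summed level was 1389 and 1261 CPM in adapted cells at 320 µM and 2925 and 2867 at 10 µM, 2917 and 2884 in persister cells at 320 µM and 3850.2 and 3177 at 10 µM, and 5186 and 5326 in control cells. This sum was thus lowest in adapted cells at 320 µM, and the keratin genes KRT18 and KRT8 led it in every condition. PAX8 was at 64.1 and 62.8 CPM in adapted cells at 320 µM, against 173 and 158.8 in control cells. Of the list, KRT7 alone was higher there than in control, at 6.39 and 5.87 against 2.92 and 2.76 CPM. In adapted cells at 10 µM, EPCAM, KRT7, KRT19 and FOLR1 lay above control and the other markers below it. The sum of 8 fibroblast markers was 265 and 243 CPM in adapted cells at 320 µM and 723 and 669.8 at 10 µM, 46.9 and 41.4 in persister cells at 320 µM and 48.7 and 61.99 at 10 µM, and 58.8 and 55.99 in control cells. Of that list, COL1A1 was at 93.6 and 90.8 CPM in adapted cells at 10 µM, against 0.884 and 1.19 in control cells, and COL3A1 at 78.8 and 79.9 against 11.5 and 11.5. ACTA2 was at 135 and 119.7 CPM in adapted cells at 320 µM and 404 and 363 at 10 µM, against 10.2 and 7.08 in control cells. THY1 was at 126 and 121 CPM in adapted cells at 320 µM and 135 and 127 at 10 µM, against 36.2 and 36.1 in control cells. PDGFRB, LUM and DCN were each highest in adapted cells at 10 µM, at 5.54 CPM or less, while COL1A2 was at no more than 0.0645 CPM in any sum. The part of these markers in the values of adapted cells was not tested. Of 5 leukocyte markers the summed level was 18.04 and 18.99 CPM in adapted cells at 320 µM and 7.38 and 8.44 at 10 µM. It was 4.24 and 2.68 CPM in persister cells at 320 µM and 11.3 and 14.4 at 10 µM, against 0.973 and 0.976 in control cells. CD68 led this sum in every condition, with CD3E at 0 in all sums and PTPRC at no more than 0.481 CPM. MKI67, a marker of cycling cells, was at 108 and 98.8 CPM in adapted cells at 320 µM and 107 and 95.1 CPM at 10 µM. Persister cells had 47.3 and 47.7 CPM at 320 µM and 31.7 and 37.96 CPM at 10 µM, and control cells 155 and 155 CPM. Cycling by this marker was lowest in persister cells. The parts of lineage and cycling in the values below were not tested, except where values within a class of cells are given.

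CCND2 is left out of the counts and medians that follow, since it passed the filter on low counts through the control sums alone. Against control, 7 of the other 9 genes passed the threshold in adapted cells at 320 µM (4 higher, 3 lower), where 74.5% (37.6% higher, 36.9% lower) of all tested genes did. In adapted cells at 10 µM it was 6 (3 higher, 3 lower), with 67.1% (33.7% higher, 33.4% lower) of all tested genes. Persister cells had 5 at 320 µM (3 higher, 2 lower), with 54.6% (26.3% higher, 28.3% lower) of all tested genes, and 5 at 10 µM (3 higher, 2 lower), with 56.6% (27.3% higher, 29.3% lower). The threshold is a Benjamini-Hochberg adjusted p under 0.05 over the 13330 tested genes in edgeR. The counts lie near the background, so they say nothing particular about these genes. Median log2 changes of the 9 genes were 0.14 and -0.05 in adapted cells at 320 µM and 10 µM, beside 0.01 and 0.00 for all tested genes. In persister cells they were 0.13 at 320 µM and 0.08 at 10 µM, beside -0.01 and -0.03. The 4 comparisons share the control sums. The labels do not tie the pools to independent cultures, so a p describes how far 2 pools scatter, perhaps for technical reasons alone, and an exact permutation test of 2 against 2 sums cannot go below 0.333. Values are also given for cells thinned to 3000 UMIs each where a call was lost, gained or turned in them. The same was done for cells on or not on a deposited list named g1, and for cells with at least 2 lineage gene UMIs. Classes by list or lineage hold fewer cells, and thinned cells hold fewer UMIs each. Comparisons with adapted cells at 320 µM, and the difference of dose effects, were not run in the lineage class.

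**Figure D1:**
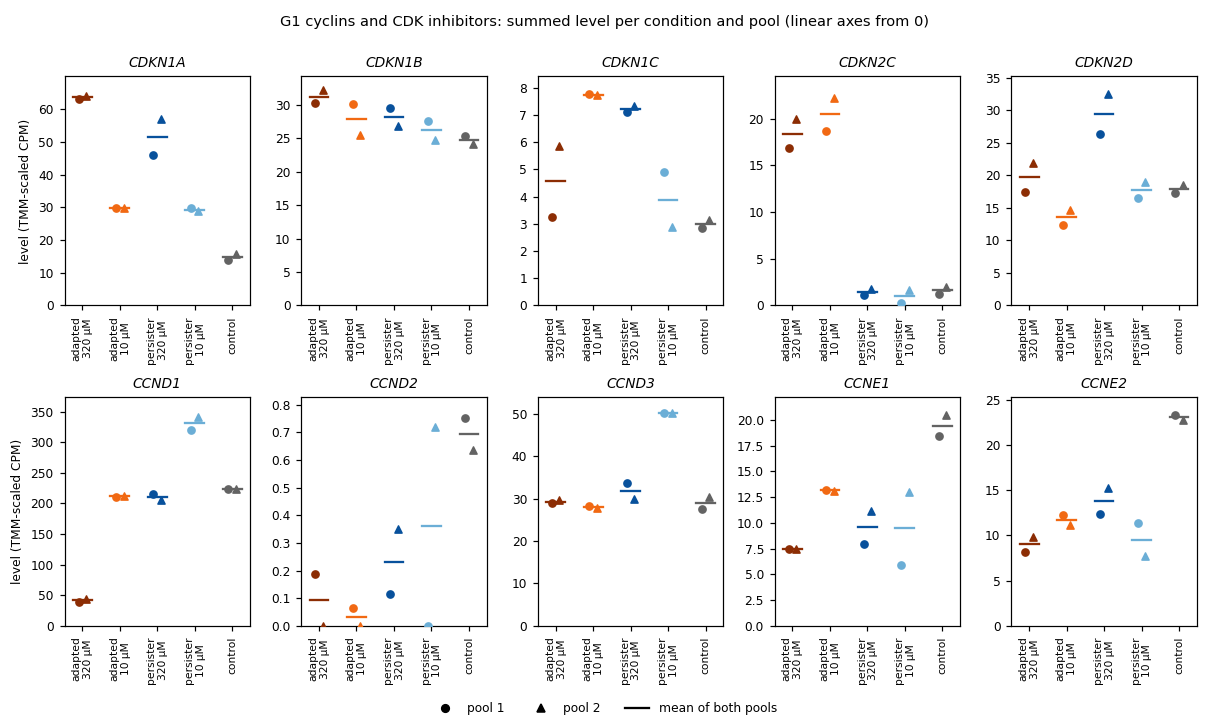
Level of each gene (TMM-scaled CPM, linear axes from 0) in every condition, circles for pool 1, triangles for pool 2 and lines for the mean. CCND1 was at 39.6 and 43.8 CPM in adapted cells at 320 µM and at 205 CPM or more in all other sums, and CDKN2C was at 16.8 CPM or more in adapted sums and at 1.99 CPM or less elsewhere.

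CDKN1A, the p21 inhibitor, which acts on CDK2 complexes, rose in all 4 treated conditions. CDKN1A was at 63.1 and 64.1 CPM in adapted cells at 320 µM and 29.8 and 29.9 CPM at 10 µM. The level was 46.1 and 56.8 CPM in persister cells at 320 µM, 29.7 and 28.8 CPM at 10 µM and 13.97 and 15.7 CPM in control cells. Every treated sum lay above both control sums, and in both states the sums at 320 µM lay above those at 10 µM. The log2 change against control was 2.10 ± 0.08 (SE, adjusted p = 8.93e-20) in adapted cells at 320 µM and 1.01 ± 0.09 (adjusted p = 3.47e-11) at 10 µM. In persister cells it was 1.79 ± 0.09 (adjusted p = 1.81e-16) at 320 µM and 0.98 ± 0.12 (adjusted p = 3.94e-08) at 10 µM. Adapted cells differed from persister cells by 0.03 ± 0.11 (adjusted p = 0.827) at 10 µM and by 0.31 ± 0.08 (adjusted p = 0.00111) at 320 µM. The difference at 320 µM was 0.02 (adjusted p = 0.802) with sums scaled by library totals alone and 0.16 (adjusted p = 0.127) without the persister sum of pool 1. CDKN1A was higher at 320 µM than at 10 µM, by 1.09 ± 0.08 (adjusted p = 4.97e-13) in adapted cells and 0.81 ± 0.11 (adjusted p = 3.47e-07) in persister cells. The dose effects differed by 0.28 ± 0.14 (adjusted p = 0.101), and by 0.43 (adjusted p = 0.0128) without the 320 µM persister sum of pool 2.

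CDKN1B, the p27 inhibitor, whose amount is known to be set largely by protein turnover, had the narrowest range of the 10 genes. CDKN1B was at 30.3 and 32.2 CPM in adapted cells at 320 µM and 30.2 and 25.4 CPM at 10 µM. Among persister cells the sums were 29.5 and 26.8 CPM at 320 µM and 27.6 and 24.7 CPM at 10 µM, and among control cells 25.3 and 24.1 CPM. Levels in adapted cells at 320 µM lay above all others, and persister sums at 10 µM overlapped with control. Adapted cells at 320 µM passed the test against control (log2 change 0.34 ± 0.08, adjusted p = 0.000484), but not with library totals alone (0.11, adjusted p = 0.207). At 10 µM the change in adapted cells was 0.17 ± 0.08 (adjusted p = 0.0748), which passed with the pool as a replicate block (adjusted p = 0.0307). It was 0.29 (adjusted p = 0.0132) without the adapted sum of pool 2, 0.31 (adjusted p = 0.0147) in cells not on the g1 list and 0.32 (adjusted p = 0.0237) in thinned cells. Adapted cells differed between doses by 0.17 ± 0.08 (adjusted p = 0.0798), which passed with that block (adjusted p = 0.0312) and without the 10 µM sum of pool 1 (0.30, adjusted p = 0.0128). The remaining comparisons of CDKN1B missed the threshold, at log2 changes of 0.19 or less. Of these, persister cells at 320 µM against control passed with library totals alone, at 0.24 (adjusted p = 0.0258), and in cells on the g1 list, at 0.35 (adjusted p = 0.0186).

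CDKN1C, the p57 inhibitor, which is imprinted in many tissues, had opposite orders of dose in adapted and persister cells. CDKN1C was at 3.26 and 5.87 CPM in adapted cells at 320 µM and 7.77 and 7.73 CPM at 10 µM. In persister cells it was at 7.11 and 7.33 CPM at 320 µM and 4.90 and 2.88 CPM at 10 µM, and in control cells at 2.83 and 3.14 CPM. It was high in adapted cells at 10 µM and in persister cells at 320 µM, and the values rest on 12 to 120 UMIs a sum. Against control the log2 change was 1.37 ± 0.19 (adjusted p = 8.80e-07) in adapted cells at 10 µM and 1.27 ± 0.22 (adjusted p = 3.12e-05) in persister cells at 320 µM. Persister cells at 10 µM had a log2 change of 0.37 ± 0.34 (adjusted p = 0.376). In adapted cells at 320 µM, whose pools lay apart, it was 0.62 ± 0.21 (adjusted p = 0.0106). That call was lost without the adapted sum of pool 2, at 0.13 (adjusted p = 0.658), without the control sum of pool 1, at 0.55 (adjusted p = 0.0613), and in DESeq2 (adjusted p = 0.0597). It was also lost with library totals alone, at 0.40 (adjusted p = 0.0952), in thinned cells, at 0.47 (adjusted p = 0.237), and in cells not on the g1 list, at 0.52 (adjusted p = 0.147). At 320 µM over 10 µM CDKN1C changed by -0.75 ± 0.19 (adjusted p = 0.00128) in adapted cells and by 0.90 ± 0.32 (adjusted p = 0.0218) in persister cells. The difference between these dose effects was -1.65 ± 0.37 (adjusted p = 0.000555), but -0.91 (adjusted p = 0.339) in cells not on the g1 list. The dose effect in adapted cells was -0.40 (adjusted p = 0.0681) without the 320 µM sum of pool 1. In persister cells it was 0.56 (adjusted p = 0.272) without the 10 µM sum of pool 2, 0.93 (adjusted p = 0.0574) and 0.89 (adjusted p = 0.0688) without the 320 µM sums of pool 1 and pool 2, and not called in DESeq2 (adjusted p = 0.0531). It was 0.16 (adjusted p = 0.881) in cells not on the g1 list, 1.14 (adjusted p = 0.217) in thinned cells and 1.09 (adjusted p = 0.1004) in cells with at least 2 lineage UMIs.

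CDKN2C, the p18 inhibitor of CDK4 and CDK6, was high in adapted cells at both doses. It had 269 and 343 UMIs in adapted cells at 320 µM (16.8 and 19.9 CPM) and 286 and 345 UMIs at 10 µM (18.7 and 22.2 CPM). Persister cells held 10 and 15 UMIs at 320 µM (1.15 and 1.75 CPM) and 1 and 7 UMIs at 10 µM (0.258 and 1.68 CPM), and control cells 28 and 47 UMIs (1.24 and 1.99 CPM). All 4 adapted sums lay above all 6 others, and persister and control sums overlapped. Against control the log2 change was 3.50 ± 0.19 (adjusted p = 4.85e-13) in adapted cells at 320 µM and 3.65 ± 0.19 (adjusted p = 3.54e-13) at 10 µM. From the UMIs of both pools, adapted cells held 11.4 times the control level at 320 µM (95% interval 8.92 to 14.6, counting error only) and 12.6 times at 10 µM (9.91 to 16.2). Persister cells held 0.889 times the control level at 320 µM (0.542 to 1.42) and 0.613 times at 10 µM (0.255 to 1.27), so no difference was detectable at this depth. At equal dose, adapted cells exceeded persister cells by 3.66 ± 0.26 (adjusted p = 6.62e-11) at 320 µM and by 4.35 ± 0.36 (adjusted p = 1.56e-09) at 10 µM, where the ratio from UMIs was 20.6 (10.4 to 47.9). The adapted populations differed between doses by -0.15 ± 0.13 (adjusted p = 0.309), but by -0.31 (adjusted p = 0.0466) with library totals alone and -0.40 (adjusted p = 0.0207) in cells not on the g1 list. All conditions of a pool were loaded together, and the part that free RNA had in the low values was not tested.

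Promoter sequence is shown for CDKN2C, which carries the largest rise, with CCNE1, a textbook E2F target, and CDKN1A, which rose in all 4 treated conditions, beside it. The E2F-type word TTCCCGC was searched on both strands together with its variants TTCGCGC and also TTGCCGC as well as TTGGCGC, in the 250 bases before each RefSeq gene start (GRCh38.p14). Matches are in capitals. Of 10 windows that RefSeq's table gives for 6 of the genes, 1 held a match, as did 3822 of all 35116 windows (10.9%). That window of CDKN2C, chr1:50968456-50968705 on the plus strand, has 2 matches, which begin 131 and 34 bases before the start.
CDKN2C: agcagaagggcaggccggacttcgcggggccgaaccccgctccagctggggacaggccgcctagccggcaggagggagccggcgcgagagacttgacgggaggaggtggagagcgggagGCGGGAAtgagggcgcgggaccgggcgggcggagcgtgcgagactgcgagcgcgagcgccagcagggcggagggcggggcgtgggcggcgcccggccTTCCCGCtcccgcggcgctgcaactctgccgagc
CCNE1: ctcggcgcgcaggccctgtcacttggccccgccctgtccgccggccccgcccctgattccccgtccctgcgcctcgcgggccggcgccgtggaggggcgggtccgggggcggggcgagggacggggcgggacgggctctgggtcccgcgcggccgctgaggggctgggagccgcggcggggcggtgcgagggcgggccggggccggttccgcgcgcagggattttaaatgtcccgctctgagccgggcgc
CDKN1A: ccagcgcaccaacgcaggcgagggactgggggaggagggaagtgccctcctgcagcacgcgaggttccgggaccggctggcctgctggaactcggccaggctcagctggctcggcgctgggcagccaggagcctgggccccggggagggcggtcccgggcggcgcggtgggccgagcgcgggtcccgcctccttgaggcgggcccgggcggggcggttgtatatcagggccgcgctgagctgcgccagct
The CCNE1 window is chr19:29811741-29811990 and the CDKN1A window chr6:36678464-36678713, both on the plus strand. None of the 4 words is in them, which says only that those letters are not in these windows. CDKN2C has 3 windows in that table, and the window shown was picked for its matches. Its other windows begin at chr1:50960495 and chr1:50969995, and no match was found in them. Counts from the 3′ ends of transcripts do not tell the starts behind the 3 windows apart. In GENCODE 29 on GRCh38, the protein-coding gene CDKN2C spans chr1:50960745-50974633, CDKN1A chr6:36676460-36687339 and CCNE1 chr19:29811898-29824308, all on the plus strand.

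CDKN2D, the p19 inhibitor of CDK4 and CDK6, was highest in persister cells at 320 µM. CDKN2D was at 17.5 and 21.8 CPM in adapted cells at 320 µM and 12.3 and 14.7 CPM at 10 µM. Persister cells had 26.3 and 32.5 CPM at 320 µM and 16.5 and 18.98 CPM at 10 µM, and control cells 17.2 and 18.5 CPM. The sums of persister cells at 320 µM lay above all others, and those of adapted cells at 10 µM below all others. Against control the log2 change was 0.72 ± 0.11 (adjusted p = 1.19e-05) in persister cells at 320 µM and -0.40 ± 0.12 (adjusted p = 0.00460) in adapted cells at 10 µM. The fall at 10 µM was -0.29 (adjusted p = 0.0821) without the adapted sum of pool 1. It was -0.0744 (adjusted p = 0.739) in thinned cells, -0.27 (adjusted p = 0.0578) in cells not on the g1 list and 0.0480 (adjusted p = 0.830) in cells on it. In adapted cells at 320 µM the change was 0.14 ± 0.11 (adjusted p = 0.244), or 0.29 (adjusted p = 0.0377) without the sum of pool 1, 0.46 (adjusted p = 0.00983) in thinned cells and 0.64 (adjusted p = 0.000786) in listed cells. Persister cells at 10 µM passed in listed cells, at 0.57 (adjusted p = 0.0188). CDKN2D was higher at 320 µM than at 10 µM in both states, by 0.54 ± 0.12 (adjusted p = 0.000416) in adapted cells and 0.72 ± 0.16 (adjusted p = 0.000571) in persister cells. The effect in persister cells was 0.12 (adjusted p = 0.748) in cells not on the g1 list. The dose effects differed by -0.18 ± 0.20 (adjusted p = 0.493).

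The other INK4 genes, CDKN2A (p16 and ARF) and CDKN2B (p15), fell in adapted cells, and CDKN2A fell in persister cells at 320 µM as well. CDKN2A was at 21.9 and 23.3 CPM in adapted cells at 320 µM and 242 and 250.4 CPM at 10 µM. The level was 428 and 439 CPM in persister cells at 320 µM, 696 and 784 CPM at 10 µM and 821 and 870.0 CPM in control cells. Adapted cells at 320 µM lay below every other sum. The log2 change of CDKN2A against control was -5.22 ± 0.06 (adjusted p = 3.27e-31) in adapted cells at 320 µM and -1.78 ± 0.05 (adjusted p = 2.84e-22) at 10 µM. In persister cells at 320 µM it was -0.96 (adjusted p = 5.20e-16). CDKN2B was at 0.564 and 0.465 CPM in adapted cells at 320 µM and 3.26 and 3.55 CPM at 10 µM. Among persister cells the sums were 21.9 and 22.7 CPM at 320 µM and 35.6 and 44.9 CPM at 10 µM, and among control cells 12.2 and 11.1 CPM. CDKN2B was thus below control in adapted cells and above it in persister cells. Its log2 change against control was -4.49 ± 0.22 (adjusted p = 2.29e-17) in adapted cells at 320 µM, -1.77 ± 0.15 (adjusted p = 9.70e-12) at 10 µM, 0.93 ± 0.11 (adjusted p = 4.30e-08) in persister cells at 320 µM and 1.79 ± 0.12 (adjusted p = 1.01e-13) at 10 µM.

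**Figure D2:**
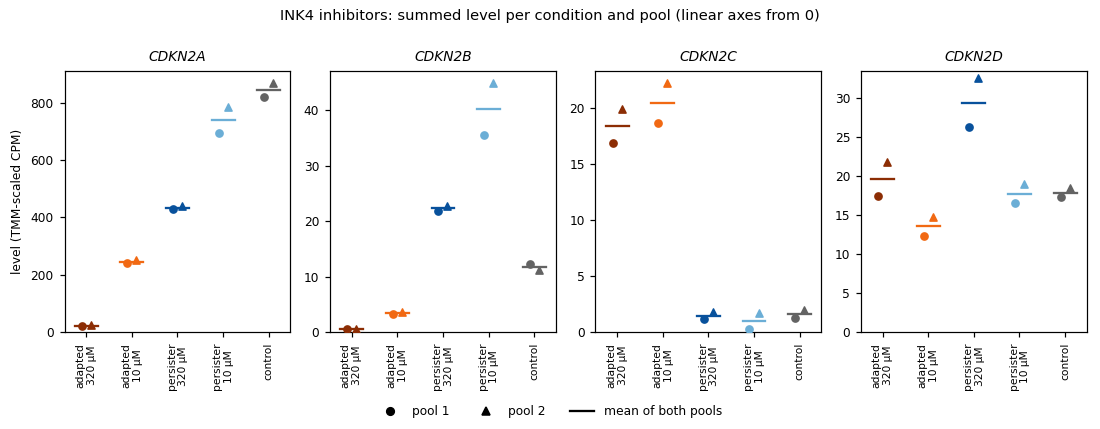
Levels of the 4 INK4 inhibitor genes (TMM-scaled CPM, linear axes from 0, a separate axis per gene) by condition, circles for pool 1, triangles for pool 2 and lines for the mean. CDKN2A lay at 21.9 and 23.3 CPM in adapted cells at 320 µM, against 821 and 870.0 CPM in control cells, while CDKN2C was high in adapted cells at both doses.

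CCND1, cyclin D1, which links mitogen signals to CDK4 and CDK6, had its largest change in adapted cells at 320 µM. CCND1 was at 39.6 and 43.8 CPM in adapted cells at 320 µM and 209.9 and 213 CPM at 10 µM. In persister cells it was at 215 and 205 CPM at 320 µM and 320.1 and 341 CPM at 10 µM, and in control cells at 224 and 223 CPM. Adapted cells at 320 µM lay below, and persister cells at 10 µM above, all other sums. The log2 change against control was -2.42 ± 0.05 (adjusted p = 2.17e-25) in adapted cells at 320 µM and 0.57 ± 0.05 (adjusted p = 7.47e-11) in persister cells at 10 µM. Adapted cells at 10 µM (-0.08 ± 0.05, adjusted p = 0.135) and persister cells at 320 µM (-0.09 ± 0.05, adjusted p = 0.127) missed the threshold. With the pool as a replicate block, at the same size, adapted cells at 10 µM (adjusted p = 0.0299) and persister cells at 320 µM (adjusted p = 0.0381) passed. Adapted cells at 10 µM also passed with library totals alone, at -0.15 (adjusted p = 0.00562), with no filter on low counts, at -0.11 (adjusted p = 0.0387), in thinned cells, at -0.15 (adjusted p = 0.0226), and in cells not on the g1 list, at -0.19 (adjusted p = 0.00480). In thinned cells the value of persister cells at 320 µM was 0.16 (adjusted p = 0.0458). CCND1 was lower at 320 µM than at 10 µM in both states, with log2 changes of -2.34 ± 0.06 (adjusted p = 1.50e-24) in adapted cells and -0.66 ± 0.05 (adjusted p = 1.07e-11) in persister cells. The dose effects differed by -1.68 ± 0.08 (adjusted p = 1.82e-17). At equal dose adapted cells were below persister cells, with log2 changes of -2.33 ± 0.06 (adjusted p = 2.44e-24) at 320 µM and -0.65 ± 0.05 (adjusted p = 4.98e-12) at 10 µM. The difference at 10 µM was -0.52 (adjusted p = 0.0811) in cells with at least 2 lineage UMIs. CCND1 spans chr11:69641087-69654474 on the plus strand.

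CCND2, cyclin D2, was near the limit of detection. It had 3 and 0 UMIs in adapted cells at 320 µM, 1 and 0 at 10 µM, 1 and 3 in persister cells at 320 µM, 0 and 3 at 10 µM, and 17 and 15 in control cells. Only the control sums held more than 3 UMIs. From the UMIs of both pools, adapted cells held 0.130 times the control level at 320 µM (95% interval 0.0256 to 0.417, counting error only) and 0.0468 times at 10 µM (0.00115 to 0.280). Persister cells held 0.334 times the control level at 320 µM (0.0857 to 0.940) and 0.539 times at 10 µM (0.106 to 1.72). The gene was kept for testing through its control sums alone, so no call of it is given.

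CCND3, cyclin D3, rose in persister cells at 10 µM. CCND3 was at 28.9 and 29.6 CPM in adapted cells at 320 µM and 28.1 and 27.7 CPM at 10 µM. Persister cells had 33.6 and 29.9 CPM at 320 µM and 50.3 and 50.2 CPM at 10 µM, and control cells 27.5 and 30.4 CPM. Persister cells at 10 µM stood above all other sums, and each other treated condition had a sum within the control range or close to it. The log2 change against control was 0.79 ± 0.09 (adjusted p = 8.83e-09) in persister cells at 10 µM, 0.13 ± 0.08 (adjusted p = 0.18) at 320 µM, and 0.02 ± 0.07 (adjusted p = 0.859) and -0.05 ± 0.08 (adjusted p = 0.553) in adapted cells at 320 µM and 10 µM. Between doses CCND3 changed by -0.66 ± 0.10 (adjusted p = 1.48e-06) in persister cells and 0.07 ± 0.08 (adjusted p = 0.457) in adapted cells, and the difference was 0.73 ± 0.13 (adjusted p = 1.51e-05). At 10 µM adapted cells were below persister cells (log2 change -0.85 ± 0.09, adjusted p = 4.77e-09). With library totals alone adapted cells at 320 µM were at -0.21 (adjusted p = 0.0120) against control and -0.40 (adjusted p = 0.000144) against persister cells. In cells not on the g1 list CCND3 passed against control at 0.23 (adjusted p = 0.0162) in adapted and 0.49 (adjusted p = 0.000533) in persister cells at 320 µM. In listed cells adapted cells at 320 µM were at -0.40 (adjusted p = 0.00911) against control, -0.57 (adjusted p = 0.000469) against persister cells and -0.39 (adjusted p = 0.0115) against 10 µM, and the difference of dose effects was 0.42 (adjusted p = 0.0717). The dose effect in persister cells was -0.38 (adjusted p = 0.0838) in cells with at least 2 lineage UMIs.

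CCNE1, cyclin E1, which takes CDK2 into S phase, fell in all 4 treated conditions. CCNE1 was at 7.45 and 7.43 CPM in adapted cells at 320 µM and 13.2 and 13.1 CPM at 10 µM. The level was 7.91 and 11.2 CPM in persister cells at 320 µM, 5.93 and 12.97 CPM at 10 µM and 18.4 and 20.4 CPM in control cells. All treated sums lay below both control sums, and the pools of persister cells at 10 µM, with 23 and 54 UMIs, lay far apart. The log2 change against control was -1.38 ± 0.15 (adjusted p = 9.71e-08) in adapted cells at 320 µM and -0.56 ± 0.13 (adjusted p = 0.00122) at 10 µM. Persister cells changed by -1.03 ± 0.16 (adjusted p = 3.54e-05) at 320 µM and -1.02 ± 0.21 (adjusted p = 0.000412) at 10 µM. The calls at 10 µM were lost in thinned cells, at -0.36 (adjusted p = 0.113) in adapted and -0.42 (adjusted p = 0.389) in persister cells. They were also lost in cells not on the g1 list, at -0.33 (adjusted p = 0.0518) and -0.32 (adjusted p = 0.443) in the same order, and that of adapted cells in cells with at least 2 lineage UMIs, at -0.23 (adjusted p = 0.170). Adapted cells had less CCNE1 at 320 µM than at 10 µM (log2 change -0.82 ± 0.16, adjusted p = 0.000265), while persister cells differed by -0.01 ± 0.26 (adjusted p = 0.993). The dose effects differed by -0.81 ± 0.30 (adjusted p = 0.0331). That call was lost without any 1 of 6 sums, which were each of the 4 adapted sums, the 10 µM persister sum of pool 1 and the 320 µM persister sum of pool 2, with values of -0.37 to -0.83. It was also lost in cells not on the g1 list, at -0.0138 (adjusted p = 0.991), in thinned cells, at -0.86 (adjusted p = 0.211), and in DESeq2 (adjusted p = 0.0517). Adapted cells differed from persister cells by 0.46 ± 0.23 (adjusted p = 0.0943) at 10 µM and -0.36 ± 0.20 (adjusted p = 0.122) at 320 µM. Both passed with the pool as a replicate block (adjusted p = 0.0307 at 10 µM and 0.0429 at 320 µM). The difference at 10 µM was 1.15 (adjusted p = 0.00113) without the persister sum of pool 2, and that at 320 µM was -0.59 (adjusted p = 0.0292) without the persister sum of pool 1. The difference at 10 µM was 0.93 (adjusted p = 0.0124) with at least 2 lineage UMIs, and that at 320 µM -0.64 (adjusted p = 0.0115) with library totals alone and -1.14 (adjusted p = 0.000244) in listed cells.

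CCNE2, cyclin E2, fell in all 4 treated conditions too. CCNE2 was at 8.21 and 9.81 CPM in adapted cells at 320 µM and 12.2 and 11.2 CPM at 10 µM. Among persister cells the sums were 12.4 and 15.3 CPM at 320 µM and 11.3 and 7.69 CPM at 10 µM, and among control cells 23.3 and 22.8 CPM. All treated sums lay below both control sums. The log2 change against control was -1.35 ± 0.11 (adjusted p = 4.59e-12) in adapted cells at 320 µM and -0.98 ± 0.11 (adjusted p = 3.12e-09) at 10 µM. For persister cells the change was -0.74 ± 0.12 (adjusted p = 4.53e-06) at 320 µM and -1.28 ± 0.16 (adjusted p = 8.35e-08) at 10 µM. Between doses CCNE2 changed in opposite directions, by -0.37 ± 0.13 (adjusted p = 0.0131) in adapted cells and 0.55 ± 0.19 (adjusted p = 0.0194) in persister cells, with a difference of -0.92 ± 0.23 (adjusted p = 0.00146). In thinned cells the difference was -0.0712 (adjusted p = 0.945). The dose effect in adapted cells was -0.25 (adjusted p = 0.161) without the 320 µM sum of pool 1 and -0.30 (adjusted p = 0.109) without the 10 µM sum of pool 1. The dose effect in persister cells was 0.29 (adjusted p = 0.345) without the 10 µM sum of pool 2 and 0.40 (adjusted p = 0.151) without the 320 µM sum of pool 2. In thinned cells the effect was -0.44 (adjusted p = 0.107) in adapted and -0.37 (adjusted p = 0.601) in persister cells. The effect in persister cells was 0.11 (adjusted p = 0.730) in cells not on the g1 list and 0.0489 (adjusted p = 0.912) in cells with at least 2 lineage UMIs. DESeq2 called neither (adjusted p = 0.0586 in adapted and adjusted p = 0.0683 in persister cells). At 320 µM adapted cells were below persister cells (log2 change -0.61 ± 0.14, adjusted p = 0.000345), but the value in thinned cells was -0.0128 (adjusted p = 0.979). At 10 µM they differed by 0.30 ± 0.19 (adjusted p = 0.162), and by -0.60 (adjusted p = 0.0121) in cells not on the g1 list.

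**Figure D3:**
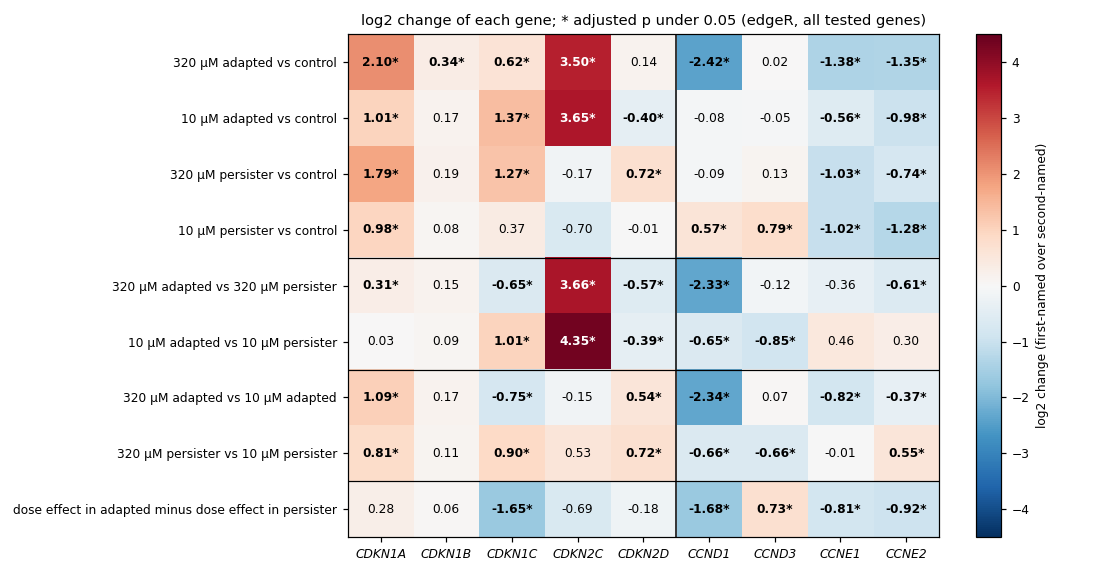
Log2 change of each gene in the 9 comparisons (columns are the genes but CCND2, inhibitors left of the line and cyclins right of it; red is higher in the condition named first). Asterisks mark an adjusted p under 0.05: CDKN1A was higher and CCNE1 and CCNE2 lower in all 4 treated conditions, and CDKN2C was higher in the 4 comparisons of adapted cells with control or persister cells.

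Between adapted and persister cells at 320 µM, 6 of the 9 genes other than CCND2 were called (2 higher, CDKN1A and CDKN2C, and 4 lower, CDKN1C, CDKN2D, CCND1 and CCNE2), beside 66.7% (34.1% higher, 32.6% lower) of all tested genes. At 10 µM 5 were called (2 higher, CDKN1C and CDKN2C, and 3 lower, CDKN2D, CCND1 and CCND3), beside 60.7% (31.4% higher, 29.3% lower). CDKN1C was thus lower in adapted cells at 320 µM (-0.65 ± 0.22, adjusted p = 0.0111) and higher at 10 µM (1.01 ± 0.30, adjusted p = 0.00556). The call at 320 µM was lost without the adapted sum of pool 1, at -0.31 (adjusted p = 0.198), and without either persister sum. It was -0.72 (adjusted p = 0.122) in thinned and -0.26 (adjusted p = 0.346) in listed cells. The call at 10 µM was lost without the persister sum of pool 2, at 0.66 (adjusted p = 0.147), in cells not on the g1 list, at -0.0565 (adjusted p = 0.953), and with at least 2 lineage UMIs, at 1.18 (adjusted p = 0.0567). The call of CDKN2D at 10 µM (-0.39 ± 0.17, adjusted p = 0.0488) was lost without any 1 of 4 sums (values -0.28 to -0.50). DESeq2 did not call it (adjusted p = 0.0678), and it was 0.12 (adjusted p = 0.805) in thinned cells and -0.58 (adjusted p = 0.0658) with at least 2 lineage UMIs. Between doses, 320 µM over 10 µM, 6 genes were called in adapted cells (2 higher, 4 lower), beside 65.8% (33.4% higher, 32.4% lower) of all tested genes. In persister cells 6 were called (4 higher, 2 lower), beside 49.7% (25.3% higher, 24.4% lower). CDKN1A and CDKN2D were higher and CCND1 lower at 320 µM in both states, while CDKN1C and CCNE2 were called in opposite directions. The difference between the dose effects was called for 5 of the 9 genes (1 higher, 4 lower), beside 49.3% (23.4% higher, 25.9% lower) of all tested genes. Median log2 changes of the 9 genes were -0.36 at 320 µM and 0.09 at 10 µM between the states, and -0.15 in adapted and 0.53 in persister cells between doses, beside 0.03, 0.06, 0.02 and 0.03 for all tested genes. Both medians between doses are the values of CDKN2C, which was not called (adjusted p = 0.309 in adapted and 0.543 in persister cells). Its value in persister cells rests on 25 UMIs at 320 µM and 8 at 10 µM, so that median is not read as a shift of the genes.

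The share of cells in which an RNA was found was compared after each cell was thinned to 3000 UMIs, which left out 207 shallower cells of 13800. CCND1 was found in 8.25% ± 0.309 of adapted cells at 320 µM (SD, n = 2 pools) and 34.2% ± 0.238 at 10 µM. It was found in 48.6% ± 1.56 of persister cells at 320 µM, 51.5% ± 0.282 at 10 µM and 43.7% ± 1.29 of control cells. The low level of CCND1 in adapted cells at 320 µM was thus a low share of cells with a CCND1 UMI, and fewer expressing cells and less RNA per cell cannot be told apart from these counts. CDKN2C was found in 5.10% ± 0.133 of adapted cells at 320 µM and 6.89% ± 0.213 at 10 µM. Its share was 0.394% ± 0.167 of persister cells at 320 µM, 0.210% ± 0.297 at 10 µM and 0.583% ± 0.300 of control cells. No cells that should lack CDKN2C were loaded, so its background share is not known, and the shares in persister and control cells are not read as expression. CDKN1A was found in 11.9% ± 0.200 of adapted cells at 320 µM and 8.08% ± 0.792 at 10 µM. In persister cells its share was 11.3% ± 1.18 at 320 µM and 8.37% ± 3.02 at 10 µM, and in control cells 3.67% ± 0.109. So CDKN1A was found in a minority of cells in every condition. Without thinning it was found in 29.7% of adapted cells at 320 µM, 18.9% at 10 µM, 28.05% of persister cells at 320 µM, 21.7% at 10 µM and 9.51% of control cells, at median depths of 8131 to 15213 UMIs per cell. CCND3 was found in 14.96% ± 2.15 of persister cells at 10 µM, against 7.50% ± 0.512 of control cells.

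The authors deposited a list, named for g1, of 7762 cells (56.2% of 13800). How it was made is not given in the sources used here and it may rest on expression, so values on and off it are a description. All listed cells were found by name in the matrix, and 37 of them had the same UMI total in the list as in the matrix. The total in the list was 95.1% to 100% of that in the matrix, with a median of 99.9%, and why they differ is not given. The share on the list was 53.9% and 55.1% of adapted cells at 320 µM and 62.9% and 67.05% at 10 µM, 78.7% and 74.9% of persister cells at 320 µM and 75.3% and 76.05% at 10 µM, and 42.3% and 43.5% of control cells. MKI67 was at 138 to 241 CPM in cells not on the list and at 2.28 to 10.8 CPM in cells on it (here without scaling factors). CDKN1A was higher in cells not on the list in every condition and pool. In adapted cells it was at 75.1 and 77.1 CPM off and 28.3 and 28.6 on the list at 320 µM, and at 39.5 and 41.02 off and 19.95 and 20.9 on it at 10 µM. In persister cells it was at 121 and 144 CPM off and 22.5 and 28.4 on the list at 320 µM, and at 67.7 and 77.6 off and 22.1 and 18.9 on it at 10 µM. Control cells had 16.2 and 18.6 CPM off and 10.4 and 11.3 on it. The mean off the list was 5.22 times that on it in persister cells at 320 µM and 1.61 times in control cells. By cell, at 3000 UMIs, 42.1% ± 1.82 of persister cells at 320 µM with a CDKN1A UMI were on the list, against 81.7% ± 2.17 of those without one. In adapted cells at 320 µM the shares were 35.3% ± 0.926 with and 57.2% ± 1.10 without, and in control cells 36.5% ± 2.07 with and 43.2% ± 1.12 without.

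**Figure D4:**
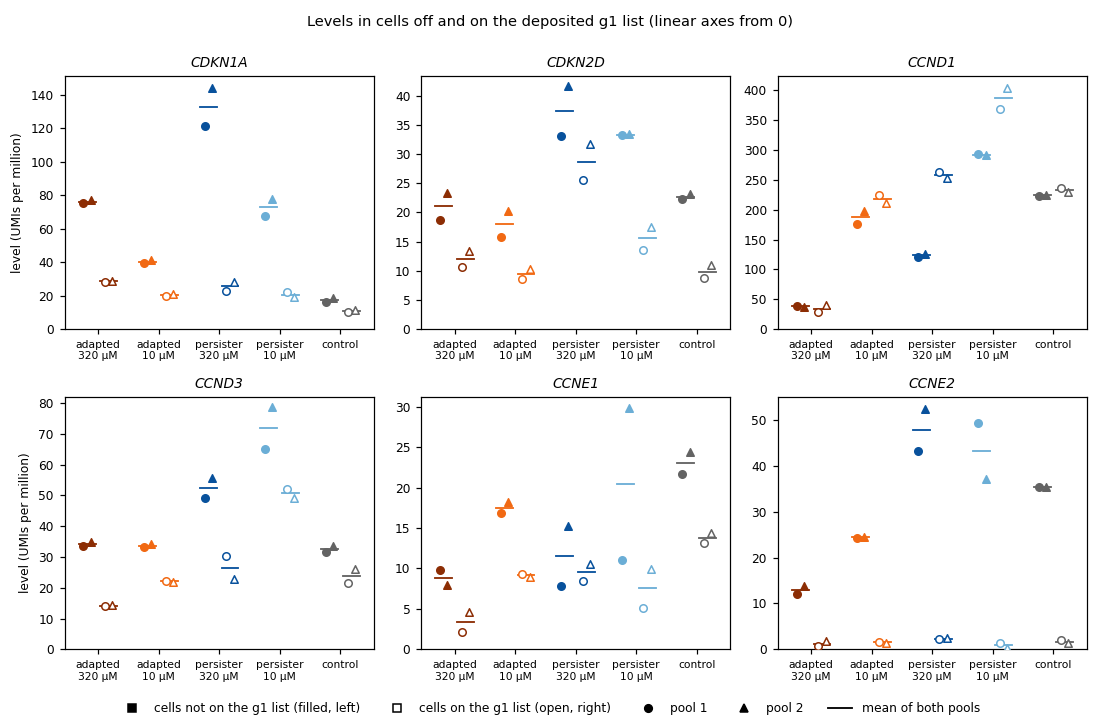
Levels of 6 genes (CPM without scaling factors, linear axes from 0) in cells not on the deposited g1 list (filled, left) and on it (open, right), circles for pool 1, triangles for pool 2 and lines for the mean. CDKN1A in persister cells at 320 µM was at 121 and 144 off the list and 22.5 and 28.4 on it, while CCNE2 was at 2.39 or less on the list in every condition.

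Within listed cells and within the others, CDKN1A was above control in all 4 treated conditions. In cells not on the list the log2 change was 2.28 (adjusted p = 1.26e-24) in adapted cells at 320 µM, 1.27 (adjusted p = 4.08e-14) at 10 µM, 2.73 (adjusted p = 7.07e-24) in persister cells at 320 µM and 1.90 (adjusted p = 9.07e-13) at 10 µM. In cells on the list it was 1.75 (adjusted p = 4.51e-16) in adapted cells at 320 µM, 1.02 (adjusted p = 1.99e-08) at 10 µM, 1.24 (adjusted p = 4.85e-10) in persister cells at 320 µM and 0.82 (adjusted p = 0.000135) at 10 µM. Outside the list adapted cells had less CDKN1A than persister cells, with log2 changes of -0.45 (adjusted p = 3.10e-05) at 320 µM and -0.63 (adjusted p = 0.000783) at 10 µM, where the values over all cells were 0.31 and 0.03. On the list adapted cells at 320 µM were higher by 0.51 (adjusted p = 0.000309). Whether the change differs between listed and other cells was not tested.

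CCND1 in persister cells at 320 µM was at 121 and 126 CPM off the list and 263 and 253 on it, against 223 and 225 off and 237 and 230.0 on it in control cells. The log2 change against control was -1.06 (adjusted p = 4.26e-15) outside the list and 0.16 (adjusted p = 0.139) on it, where the value over all cells was -0.09. The change in adapted cells at 320 µM was -2.41 (adjusted p = 9.72e-29) outside the list and -2.41 (adjusted p = 4.21e-11) on it. CCND3 was higher off the list in all 5 conditions, for example at 33.7 and 34.8 CPM off and 13.96 and 14.3 on it in adapted cells at 320 µM.

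CCNE2 was found mostly in cells not on the list, at 12.1 and 13.8 CPM in adapted cells at 320 µM and 24.2 and 24.5 at 10 µM. There it was at 43.2 and 52.4 CPM in persister cells at 320 µM, 49.2 and 37.02 at 10 µM and 35.4 and 35.4 in control cells. On the list it was at 2.39 CPM or less in every sum, and none of its 9 comparisons passed there. Among cells not on the list, persister cells differed from control by 0.23 (adjusted p = 0.115) at 320 µM and 0.13 (adjusted p = 0.636) at 10 µM, and neither passed. Adapted cells were lower there, with log2 changes of -1.29 (adjusted p = 5.69e-14) at 320 µM and -0.47 (adjusted p = 0.000137) at 10 µM. CCNE1 outside the list was at -1.22 (adjusted p = 3.45e-08) in adapted and -1.20 (adjusted p = 0.000101) in persister cells at 320 µM against control.

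CDKN2C in adapted cells was at 13.4 and 16.5 CPM off and 16.3 and 18.2 on the list at 320 µM, and at 17.9 and 24.4 off and 18.1 and 19.7 on it at 10 µM. In persister cells at 320 µM it was at 3.22 and 5.82 CPM off and 0.489 and 0.342 on the list, and in control cells at 1.59 and 2.56 off and 0.642 and 1.08 on it. In adapted cells the sums on and off the list overlapped. CDKN2D was higher off the list in each condition, from 1.30 times in persister cells at 320 µM to 2.31 times in control cells.

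Cells were also divided, after the values were seen, by their UMIs of 5 lineage genes (PAX8, SOX17, MECOM, EMX2 and CDH6) at 3000 UMIs per cell. No such UMI was found in 79.6% and 78.6% of adapted cells at 320 µM and 38.5% and 38.5% at 10 µM, against 7.14% and 5.15% of control cells. Within adapted cells at 10 µM CCND1 was at 142 and 142 CPM in cells with none of these UMIs, 197 and 215 in cells with 1, and 280.2 and 272 in cells with at least 2. In control cells it was at 201 and 220.3 CPM with none, 215 and 206 with 1 and 233 and 230.3 with at least 2. CCND1 was thus higher where lineage UMIs were more, in both pools of adapted cells at 10 µM. CDKN2C ran the other way there, at 20.7 and 26.6 CPM with none, 20.04 and 24.5 with 1 and 12.7 and 14.03 with at least 2, and it was at 4.05 CPM or less in every class of control cells. CDKN1A in adapted cells at 10 µM was at 32.2 and 36.4 CPM with none, 29.6 and 27.6 with 1 and 24.1 and 22.04 with at least 2. CDKN2C and CDKN1A of adapted cells at 10 µM were above control in all 3 classes. CCND1 in adapted cells at 320 µM was at 33.1 and 34.8 CPM in cells with none and 38.3 and 28.9 in cells with 1. Its level in cells with at least 2 at that dose appears only in the plot of levels by lineage UMIs. The values given here thus do not show whether CCND1 goes with lineage UMIs at 320 µM, which was not tested. MKI67 differed between these classes as well, at 137 and 115 CPM with none and 72.99 and 59.2 with at least 2 in adapted cells at 10 µM.

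**Figure D5:**
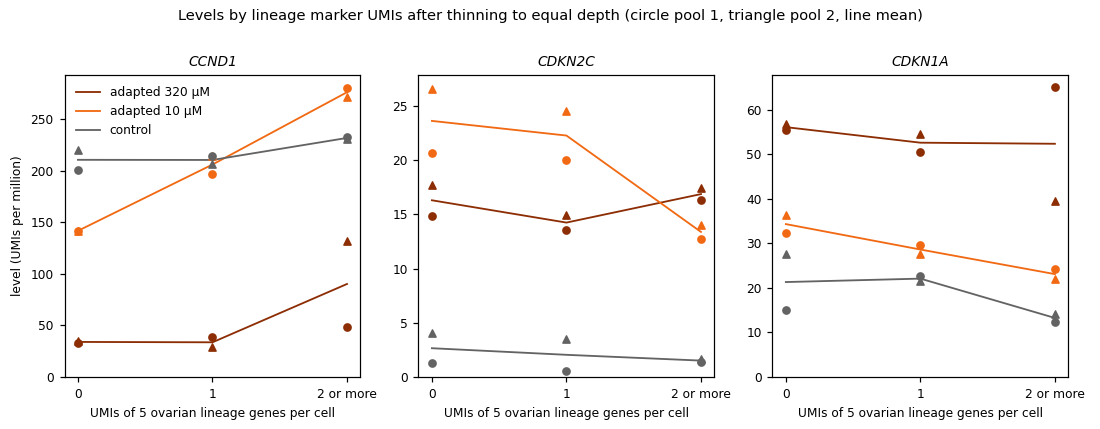
Levels of CCND1, CDKN2C and CDKN1A (CPM without scaling factors, linear axes from 0) in cells with 0, 1 or at least 2 UMIs of 5 ovarian lineage genes, in adapted cells at 320 µM, adapted cells at 10 µM and control cells, circles for pool 1, triangles for pool 2 and lines for the mean. In adapted cells at 10 µM CCND1 was at 142 and 142 with none and 280.2 and 272 with at least 2, and CDKN2C stood above control in each class.

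The genes around these regulators were counted in lists, beside which the shares of all tested genes called are those given above and the medians of all tested genes against control lie between -0.03 and 0.01. Of 12 other G1 kinases, pocket proteins and inhibitors, 8 were higher and 3 lower in adapted cells at 320 µM than in control cells (median log2 change 0.40), and 5 and 3 at 10 µM (0.04). In persister cells 3 were higher and 6 lower at 320 µM (-0.20), and 3 and 5 at 10 µM (-0.10). CDK6, a partner of the D cyclins, was at 92.2 and 93.3 CPM in adapted cells at 320 µM and 157 and 157 at 10 µM, 69.7 and 72.2 in persister cells at 320 µM and 51.3 and 67.5 at 10 µM, and 81.01 and 83.3 in control cells (log2 change in adapted cells at 10 µM 0.93 ± 0.06, adjusted p = 5.18e-14). CDKN3, a phosphatase that acts on CDK2, was at 159.9 and 160.3 CPM in adapted cells at 320 µM and 146 and 145 at 10 µM, 88.96 and 86.97 in persister cells at 320 µM and 31.2 and 44.2 at 10 µM, and 102 and 107 in control cells. It thus lay above control in adapted and below it in persister cells, and fell most in persister cells at 10 µM (-1.46 ± 0.09, adjusted p = 1.19e-13). MNAT1, an assembly factor of the CDK-activating kinase, was at 128 and 120.4 CPM in adapted cells at 320 µM, against 71.4 and 69.1 in control cells, and rose there (0.82 ± 0.05, adjusted p = 4.26e-14).

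Of 18 E2F target genes of S phase entry, 4 were higher and 9 lower in adapted cells at 320 µM than in control cells (median log2 change -0.16), and 3 and 10 at 10 µM (-0.31). In persister cells 0 were higher and 17 lower at 320 µM (-0.98), and 0 and 18 at 10 µM (-1.19). Adapted cells were higher than persister cells for 15 of them at 320 µM (median 0.60, beside 0.03 for all tested genes) and 16 at 10 µM (0.82, beside 0.06), and lower for 0 at both doses. MCM4, a subunit of the replicative helicase, was at 70.8 and 69.3 CPM in adapted cells at 320 µM and 77.5 and 70.1 CPM at 10 µM. In persister cells it was at 57.6 and 62.9 CPM at 320 µM and 54.9 and 52.9 CPM at 10 µM, and in control cells at 147 and 139 CPM. All its treated sums lay below control. Of 17 E2F and DREAM factors, 1 was higher and 10 were lower than control in adapted cells at 320 µM, 0 and 12 at 10 µM, 1 and 8 in persister cells at 320 µM, and 1 and 10 at 10 µM. Their median log2 changes in the same order were -0.31, -0.30, -0.25 and -0.60. RBBP4, a histone-binding subunit of DREAM, was at 58.4 and 61.7 CPM in adapted cells at 320 µM, against 114 and 120.3 in control cells, and fell there (-0.97 ± 0.06, adjusted p = 3.80e-15). MYBL2, a factor of late cell cycle genes, was at 32.2 and 36.3 CPM in persister cells at 10 µM, against 69.9 and 75.4 in control cells, and fell there (-1.08 ± 0.09, adjusted p = 2.82e-11).

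Of 12 genes of cyclin and inhibitor turnover, 2 were higher and 5 lower than control in adapted cells at 320 µM, 1 and 6 at 10 µM, 2 and 6 in persister cells at 320 µM, and 0 and 6 at 10 µM. The medians were -0.18, -0.28, -0.21 and -0.21 in the same order. SKP2, the ubiquitin ligase subunit that marks p27 and p21 for destruction, was at 23.6 and 25.7 CPM in adapted cells at 320 µM and 27.7 and 27.3 CPM at 10 µM. Persister cells had 16.5 and 19.9 CPM at 320 µM and 8.51 and 11.5 CPM at 10 µM, and control cells 42.5 and 43.5 CPM. All treated sums of SKP2 lay below control, and its log2 change was -2.09 ± 0.13 (adjusted p = 3.87e-14) in persister cells at 10 µM. CUL1, the scaffold of that ligase, was at 26.4 and 26.7 CPM in adapted cells at 320 µM, against 62.6 and 57.7 in control cells, and fell there (-1.18 ± 0.07, adjusted p = 1.37e-15).

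Of 20 regulators of transcription linked to these genes, 19 were tested, and 8 were higher and 7 lower than control in adapted cells at 320 µM (median log2 change 0.03), and 5 and 10 at 10 µM (-0.21). In persister cells 5 were higher and 9 lower at 320 µM (-0.36), and 8 and 8 at 10 µM (0.06). SMAD3, which relays TGF-beta signals to genes such as CDKN1A, was at 91.1 and 94.5 CPM in adapted cells at 320 µM and 43.8 and 45.4 CPM at 10 µM. The level was 11.6 and 12.1 CPM in persister cells at 320 µM, 41.5 and 43.97 CPM at 10 µM and 10.6 and 11.03 CPM in control cells. In persister cells at 320 µM the log2 change of SMAD3 against control was 0.13 ± 0.11 (adjusted p = 0.372). Whether SMAD3 had a part in the values of CDKN1A was not tested.

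The 10 sums share 2 pools and 5 conditions. Across them CDKN1A and CCNE1 had a Pearson correlation of -0.75 in log2 CPM and CDKN1A and CDKN1B 0.74, the largest in size of all pairs. Other pairs varied in size and sign, with CDKN1B and CCNE1 at -0.71 and CCNE1 and CCNE2 at 0.65. CCND3 and CCNE1 were at -0.36, and CDKN2C and CCNE1 at 0.02. The inhibitor and the cyclin with the widest range of condition means were CDKN2C (4.58 on the log2 scale) and CCND1 (2.98). Of 5444 other genes that averaged at least 20 CPM, those with a pattern over the 10 sums most like that of CDKN2C were CAMK2D (0.99), PDLIM5 (0.98), C6orf48 (0.98), WDYHV1 (0.98), SEC14L1 (0.97), with the correlation in parentheses. Of 5443 other genes, those most like CCND1 were SLC4A1AP (0.99), AKR1A1 (0.99), SEC31A (0.99), GLMP (0.99), SERTAD3 (0.99).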

How the data were processed

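Single-cell 3′ RNA libraries (8 gene expression and 2 hashtag libraries of 2 pools) were made with 10x Genomics v3.1 chemistry and TotalSeq-A hashtags, per the labels' protocols. The authors deposited UMI counts per gene and cell, not normalized, for 19893 genes in 13800 cells. Cell Ranger 3.1, Seurat and hg38/GRCh38 appear, with no role, per the submitters' processing notes. Condition and pool were read from the cell names of the deposited matrix, since no GEO sample holds 1 condition. How reads were counted, cells filtered or doublets removed is not given in the sources used here. No doublet caller was run. Cells had at least 502 genes and at most 24458 UMIs.

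Counts were summed per condition and pool, scaled with TMM factors and filtered with filterByExpr by condition (minimum count 10, minimum total 15). After the filter, 13330 genes were tested in edgeR 4.0.16 (R 4.3.3) by robust quasi-likelihood F tests over all 10 sums with 1 mean per condition. Residual degrees of freedom were 5, and the biological coefficient of variation was 4.39%. P-values were adjusted by Benjamini-Hochberg over all tested genes, and the code was tested on simulated data. Counting intervals are exact 95% intervals and cover counting error only. A count of 3 UMIs was worth 0.129 to 0.849 CPM in the sums. Pool numbers pair the sums, since each pool was loaded with all conditions: pool differences of the 10 pairs of conditions correlated at 0.382 to 0.672 over 1415 genes of at least 100 CPM, and the pool was fitted as a block in an alternative. Thinning drew 3000 UMIs per cell without replacement, and in an alternative 5000. GENCODE 29 gave gene positions, and promoter windows came from RefSeq (GRCh38.p14). Python 3.11.15, numpy 2.4.6, scipy 1.17.1 and pandas 2.3.3 were used otherwise.

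The members and the 6 gene lists (102 genes) were chosen with earlier results of these data known, so no count over them is independent evidence. The results of 1 list and of some single genes are not reported here. All 10 members are named throughout, and CCND2, which passed the filter through control alone, is left out of counts of calls unless named in them. Of each list, up to 2 genes with the lowest p among those called and with at least 20 CPM in the higher condition may be named per comparison. Alternatives were DESeq2 1.42.0, its size factors computed in edgeR (RLE), library totals, no filter, a fit of the compared conditions alone, the pool block, each sum left out in turn, listed and other cells, thinned cells, and, chosen after seeing the data, cells with at least 2 lineage UMIs. Deposited hashtag sequences were not used here.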

Additional observations from a re-analysis of the deposited data

Results flagged for a closer look

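For 5 of the 9 genes other than CCND2 the effect of dose (320 µM over 10 µM, log2) in adapted cells differed from that in persister cells by the test of the difference itself in edgeR. The difference was -1.65 for CDKN1C, with dose effects of -0.75 in adapted and 0.90 in persister cells, but -0.91 (adjusted p = 0.339) in cells not on the g1 list. It was -1.68 for CCND1 (-2.34 in adapted and -0.66 in persister cells). It was 0.73 for CCND3 (0.07 in adapted and -0.66 in persister cells), but 0.42 (adjusted p = 0.0717) in listed cells. It was -0.81 for CCNE1 (-0.82 in adapted and -0.01 in persister cells), a call that DESeq2 did not make (adjusted p = 0.0517) and that was lost in cells not on the g1 list, at -0.0138 (adjusted p = 0.991), and in thinned cells, at -0.86 (adjusted p = 0.211). It was -0.92 for CCNE2 (-0.37 in adapted and 0.55 in persister cells), but -0.0712 (adjusted p = 0.945) in thinned cells. By the same rule 49.3% of all tested genes differed.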

How the results depend on the processing

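Of 1712 values of the 90 gene and comparison pairs under the alternatives, 1585 counted as unchanged, 70 lost a call, 41 gained one and 16 reversed. A change of sign between values that both missed the threshold counts as unchanged here. The cause of the changes was not tested. With the pool as a replicate block 84 of 90 stayed and 6 gained a call, all given above (for example CCND1 in adapted cells at 10 µM against control, -0.0815), and no other call changed. DESeq2 lost 6 calls: CDKN1C in adapted cells at 320 µM against control (adjusted p = 0.0597), CDKN2D between adapted and persister cells at 10 µM (0.0678), the dose effects of CCNE2 in adapted (0.0586) and persister cells (0.0683) and of CDKN1C in persister cells (0.0531), and the difference of dose effects of CCNE1 (adjusted p as above).

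In cells on the g1 list, CCND3 in adapted cells at 320 µM was -0.40 against control and -0.39 against 10 µM, CCNE2 was 0.00737 between adapted doses and 0.49 in persister cells at 320 µM against control, and CDKN2D against control was 0.0480 in adapted and 0.57 in persister cells at 10 µM. In cells not on it, CCNE2 was -0.60 between adapted and persister cells at 10 µM, and 0.23 and 0.13 in persister cells at 320 µM and 10 µM against control. There adapted minus persister was -0.45 at 320 µM and -0.63 at 10 µM for CDKN1A, and -0.0565 at 10 µM for CDKN1C. In thinned cells CCND1 was 0.16 in persister cells at 320 µM against control, CCNE2 -0.37 between persister doses and CDKN2D 0.12 between adapted and persister cells at 10 µM. With library totals alone CCND3 was -0.21 in adapted cells at 320 µM against control, and the median of all genes was -0.22 there, -0.25 between adapted and persister cells at 320 µM, -0.14 between adapted doses and -0.13 between adapted and persister cells at 10 µM. Higher calls then made up 37.4%, 33.6%, 37.5% and 38.9% of calls in the same order, beside 50.5%, 51.2%, 50.8% and 51.8% with TMM.

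The counts of calls within classes of cells that follow have no share of all tested genes of the same class beside them. They are thus not read as results about these genes. Of the 9 genes other than CCND2, 4 were called in adapted cells at 10 µM against control on the list. In all cells it was 6, beside 67.1% of all tested genes. Off the list 3 were called in persister cells at 10 µM against control (5 in all cells). Between persister doses 3 were called off the list and 3 in cells with at least 2 lineage UMIs (6 in all cells), and between adapted and persister cells at 10 µM 3 in that class (5). The difference of dose effects was called for 3 on the list, 3 off it and 3 in thinned cells (5). Over all tested genes, calls numbered 4271 off the list and 4519 in thinned cells for persister cells at 10 µM against control (7547 in all cells), and 4408 in thinned cells at 320 µM (7282). They numbered 4700, 4864 and, with at least 2 lineage UMIs, 5163 between adapted and persister cells at 10 µM (8094), and 3566, 3426 and 4185 between persister doses (6624). For the difference of dose effects they were 3936 off the list and 3626 in thinned cells (6577). Classes by list or lineage UMIs hold fewer cells by construction, and thinned cells hold fewer UMIs each.

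Shares of cells on the list by CDKN1A UMI moved with depth. At 5000 UMIs they were 31.6% with a UMI in adapted cells at 320 µM, 42.8% with one at 10 µM, 53.5% with and 82.2% without one in persister cells at 10 µM, and 32.97% with and 41.7% without in control cells. Without thinning they were 30.5% with and 64.6% without in adapted cells at 320 µM, 46.8% and 69.2% at 10 µM, 47.6% and 88.1% in persister cells at 320 µM, and 29.4% and 44.4% in control cells. Of 100 shares of cells with a UMI, 89 moved by over 1 SD at other depths, which hold more UMIs per cell by construction. Depth limits CCND2, with 3 or fewer UMIs in every treated sum. It also limits CDKN2C (1 and 7 UMIs), CDKN1C, CCNE1 and CCNE2 in persister cells at 10 µM, whose sums hold the fewest UMIs.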
